A study of Rattus norvegicus with 2 samples.

Results

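The genes described here encode SNAREs and synaptic vesicle proteins, and they were compared between 1 Scramble library and 1 PIWIL1 RNAi library of cultured rat cortical neurons. They were chosen by rat gene symbol alone: the syntaxins, the syntaxin-binding proteins, the VAMPs, the numbered SNAP genes, the complexins, the SV2 and synapsin genes, Syp, Nsf and the NAP genes. The rule found 35 of the 9894 genes listed in either library, and 30 of them had at least 20 tag copies in both libraries together. In both groups, cells dissociated from the somatosensory cortex of Sprague-Dawley rat embryos at E16 were electroporated, kept for 48 h in Neurobasal medium with 10% FBS and 2% B27, and lysed in Trizol for total RNA. The groups' only recorded difference was the plasmid, a control (Scramble) or an RNAi construct against PIWIL1, an Argonaute-family protein of the Piwi clade. Each group was 1 library, so the plasmid cannot be told apart from differences between cultures or libraries. The siRNA sequences were carried by a pSuper vector, and the sources used here describe no sorting of electroporated cells before lysis and do not name which rat siRNA was sequenced. PIWIL1 itself was not analysed here, so the libraries hold no check of its knockdown. With 1 library per condition there is no replicate check, and every test below compares these 2 libraries and not the conditions.

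SNAREs are membrane proteins whose coiled-coil motifs zip together between a vesicle and its target membrane and drive the membranes to fuse. In neurons, synaptobrevin (Vamp2) on the vesicle pairs with syntaxin (Stx1a) and Snap25 on the plasma membrane, the complexins guide that pairing, and the ATPase Nsf with its SNAP adaptors (Napa, Napg) takes spent complexes apart. Other syntaxins and VAMPs serve the Golgi, endosomes and lysosomes in every cell, and a growing neurite uses both kinds of fusion to add membrane. Synaptophysin, the SV2 proteins and the synapsins sit on synaptic vesicles and are already made before synapses form.

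Each transcript was represented by 21-base tags that begin at a CATG site, and a gene's copies are the sum over its tags. Sites are counted from the 3′ end of the transcript, and the site nearest to that end normally gives the most copies. The most copied tags of the called genes and of the genes with the most copies are shown 5′ to 3′, because 1 tag carries most copies of several of these genes. Capitals mark the CATG site and the last 2 bases, which the ratio between the libraries varied with.
Snap25, site 1: CATGtatattaaatccctcCT
Snap29, site 1: CATGtaacaagtagaacaaAA
Vamp2, site 1: CATGcccccaattctgtggCG
Vamp2, site 2: CATGttgattagcatatcaTT
Stx7, site 3: CATGattgtgctatcttatTA
Stx7, site 2: CATGtatctttgggtcccgTC
Stx7, site 4: CATGtgtgctctgcctacaCC
The tag of Snap25 ends in CT, and those of Stx12 and Cplx2 at site 1 end in GT. Over all tags with at least 20 copies, the median log2 ratio of PIWIL1 RNAi over Scramble was −0.68 for tags ending in GT, −0.25 for CT, −0.08 for CG and 0.29 where the tag closed with 4 A in a row, as the Snap29 tag does. Among SNARE and vesicle tags of 20 or more copies, 5 ended in GT, and each of the 5 was lower with PIWIL1 RNAi. For the set, values with the median of each tag end, relative to that of all tags, taken out are given beside the results whose sign or test they change.

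The Scramble library held 1947600 tag copies on genes, 57.5% of its clean tags, and the PIWIL1 RNAi library 1865913 copies, 56.5% of its clean tags. Levels are given as copies and as TPM, which here means copies per 1000000 clean tags with no regard to gene length, so that levels of different genes are not compared. The lowest copy number listed for any tag was 2. A floor of 3 copies equals 0.886 TPM for Scramble and 0.908 TPM for PIWIL1 RNAi. The 95% intervals of log2 ratios were computed exactly by the Clopper-Pearson method, and they hold counting error alone, with every copy treated as independent. Amplified copies are not independent molecules, so the intervals may be too narrow even for that error. The 10 neuronal markers, among them Tubb3, Gap43 and Dcx, were all listed, with a summed level of 5230 TPM with Scramble and 4400 TPM with PIWIL1 RNAi. For 6 of 7 radial glia and progenitor markers they were 1009 and 1302 TPM, a difference carried by Vim alone (2674 and 3724 copies), while the other 5 were lower and the median log2 ratio of the list was −0.28. The summed levels were 384 and 274 TPM for 2 of 4 markers of proliferating cells, and 88.6 and 80.5 TPM for 4 of 5 astrocyte markers. All 6 markers of the oligodendrocyte lineage were listed at 7.39 and 5.75 TPM together, 2 of 5 of microglia at 14.17 and 16.04 TPM, 2 of 6 of endothelial and mural cells at 2.95 and 1.52 TPM, and 3 of 4 of blood at 27.8 and 35.1 TPM. The 5 markers of GABAergic neurons summed to 41.6 and 49.6 TPM. The remaining markers were not analysed here. In bulk RNA, fewer cells of a type and less RNA per cell cannot be told apart, and the part of these differences in the results below was not tested.

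SNARE and vesicle genes showed no shared direction between the libraries. Together they held 8375 copies with Scramble and 7881 with PIWIL1 RNAi, which is 0.430% and 0.422% of the copies on genes. Among the 30 genes with at least 20 copies, 15 had a lower and 15 a higher value with PIWIL1 RNAi, with a median log2 ratio of −0.0050, against −0.085 and 58.0% lower over the 7443 genes listed with at least 20 copies. A gene was called when Fisher's exact test, two-sided, gave an FDR (Benjamini-Hochberg, over all 9894 genes) of 0.05 or less and the log2 ratio was at least 0.58 in size. By this rule Cplx2 and Snap25 fell and Snap29 rose, 2 lower and 1 higher, where 5.97% of all genes were called lower and 2.96% higher. The 3 called genes are 8.57% of the 35, close to the 8.93% called among all genes in either direction. When the calls were limited to genes with at least 100 copies, the set had 1 lower and 1 higher of 19, or 10.5%, against 8.46% of all such genes called lower, 4.62% called higher and 13.1% in either direction. By the log2 ratio alone at 20 or more copies, 2 were lower and 4 higher of 30, against 15.8% and 7.17% of all such genes. Under edgeR's TMM scaling the split of calls over all genes moved from 591 lower and 293 higher to 459 lower and 398 higher, and in the set Stx6 and Vamp1 were then called higher as well.

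**Figure D1:**
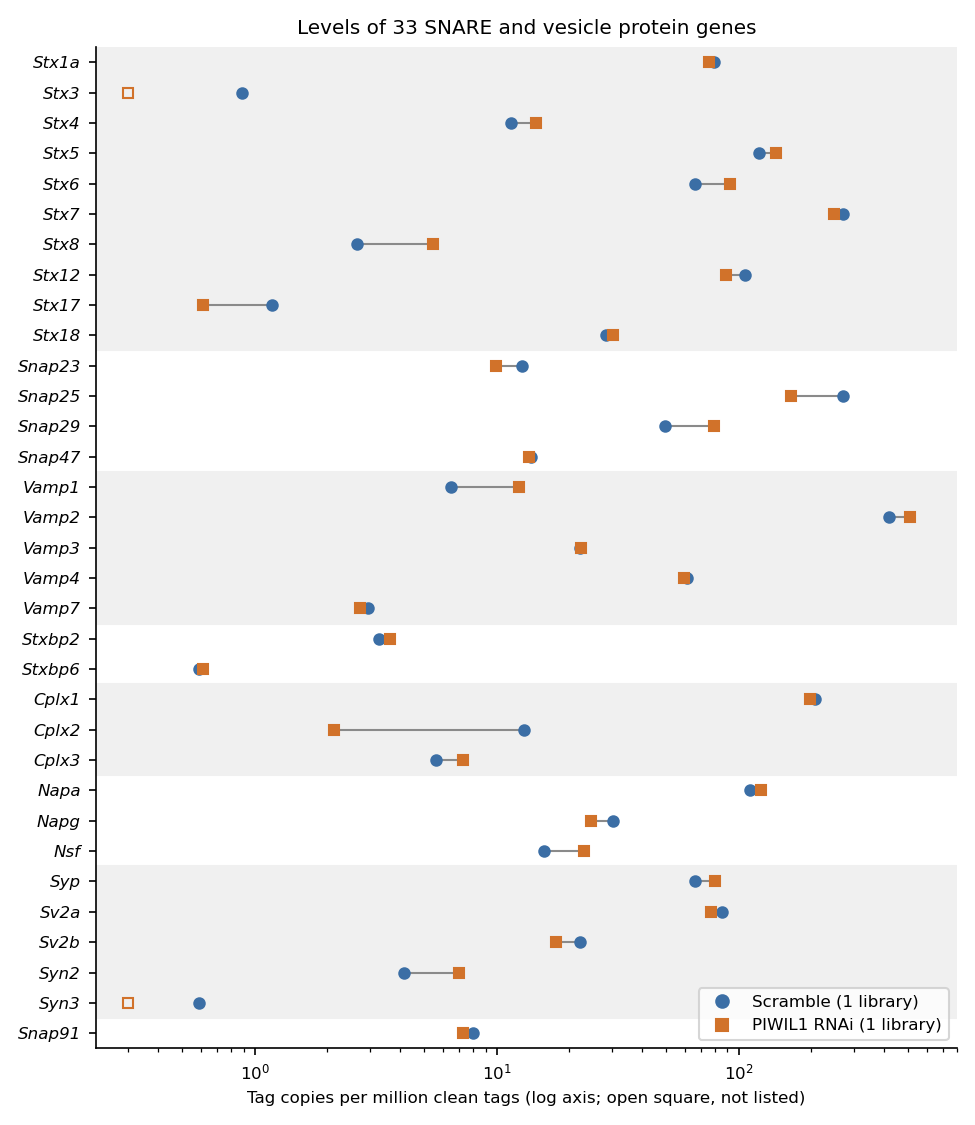
Level of 33 genes of the set in the Scramble library (circles) and the PIWIL1 RNAi library (squares), as TPM on a log axis, with 1 library each and grey bands grouping genes of one role. The longest line is that of Cplx2, from 12.99 to 2.12 TPM. Open squares mark Stx3 and Syn3, which had tags with Scramble only.

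The syntaxins are the target-membrane SNAREs, and none of the 11 was called in either direction. Stx1a, the syntaxin of synaptic vesicle release, had 269 copies with Scramble and 249 with PIWIL1 RNAi. Its log2 ratio of −0.08 had an interval of −0.33 to 0.18, and with TMM or DESeq2 scaling the sign turned, to 0.019 and 0.0096. Stx4, also a syntaxin of the plasma membrane, had 39 and 48 copies. Stx3 had 3 copies in the Scramble library only, which is at the floor, and no fold is given.
Stx5 and Stx6, syntaxins of the Golgi, passed the FDR threshold as deposited, below the size needed for a call, and neither passed it with the tag-end medians taken out. Stx6, which works between the trans-Golgi network and endosomes, had 223 and 306 copies, or 65.8 and 92.6 TPM. Its log2 ratio was 0.49 (interval 0.24 to 0.75; Fisher's exact test, FDR 0.000568), and with the tag-end medians taken out it was 0.29 (Fisher's exact test, FDR 0.0872). Stx5, needed for traffic from the endoplasmic reticulum to and within the Golgi, had 411 and 473 copies. Its log2 ratio was 0.24 (interval 0.04 to 0.43; Fisher's exact test, FDR 0.0444), and with the tag-end medians taken out 0.14 (Fisher's exact test, FDR 0.334). Of its Scramble copies, 98.1% lay on 1 tag. Stx18, a syntaxin of the endoplasmic reticulum, had 96 and 100 copies.
The endosomal syntaxins did not move together. Stx7, of late endosomes and lysosomes, had 918 and 818 copies, a log2 ratio of −0.13 with an interval of −0.27 to 0.01. Stx12, of recycling endosomes, had 359 and 293 copies and a log2 ratio of −0.26 (interval −0.48 to −0.03; Fisher's exact test, FDR 0.165), and this turned to 0.15 once the tag-end medians were taken out. Stx8, a partner of Stx7, had 9 and 18 copies, all on 1 tag, and its log2 ratio of 1.04 had an interval of −0.19 to 2.37. Stx17, which acts in the fusion of autophagosomes with lysosomes, had 4 and 2 copies.

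The SNAP-25 family, which adds helices to the same complexes as the syntaxins, held one gene that fell and one that rose. Snap25, the neuronal member at the plasma membrane and the target of several botulinum toxins, had 918 copies (271 TPM) with Scramble and 545 copies (165 TPM) with PIWIL1 RNAi. The PIWIL1 RNAi library thus held 0.609 of the Scramble level, a log2 ratio of −0.72 with an interval of −0.87 to −0.56 (Fisher's exact test, FDR 1.74e-17). Of the 388 genes with 1000 to 2000 copies in both libraries together, 14 (3.61%) had a lower ratio than Snap25. The site 1 tag shown above carried 86.4% of the Scramble copies, with 793 and 453 copies. The tag at site 2 had 73 and 64 copies (interval −0.66 to 0.35) and that at site 6 had 25 and 15 (interval −1.73 to 0.28). Each of the 3 tags of 20 or more copies was thus lower with PIWIL1 RNAi. Only the interval of the site 1 tag, −0.94 to −0.60, lay wholly below 0. With the tag-end medians taken out the log2 ratio was −0.56, still past the FDR threshold (Fisher's exact test, FDR 2.62e-10) but short of the 0.58 needed for a call. Without the site 1 tag it was −0.41, and Snap25 was not called.
Snap29, which pairs with syntaxins of intracellular membranes including autophagosomes, had 169 copies (49.9 TPM) with Scramble and 262 copies (79.3 TPM) with PIWIL1 RNAi. That is 1.59-fold higher, a log2 ratio of 0.67 with an interval of 0.38 to 0.96 (Fisher's exact test, FDR 1.59e-05), and higher than 96.6% of the 1741 genes with 200 to 500 copies. The rise was seen in both abundant tags, 85 to 149 copies at site 1 and 52 to 77 at site 2, while the tag at site 6 had 18 and 14. After the tag-end medians were taken out the log2 ratio was 0.44 (Fisher's exact test, FDR 0.0135), also short of a call. Without the site 1 tag it was 0.46, and Snap29 was not called. Snap23, the relative of Snap25 found in most cells, had 43 and 33 copies, with an interval of −1.05 to 0.34. Snap47, an intracellular member of the family, had 47 and 45 copies and an interval of −0.65 to 0.59.

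**Figure D2:**
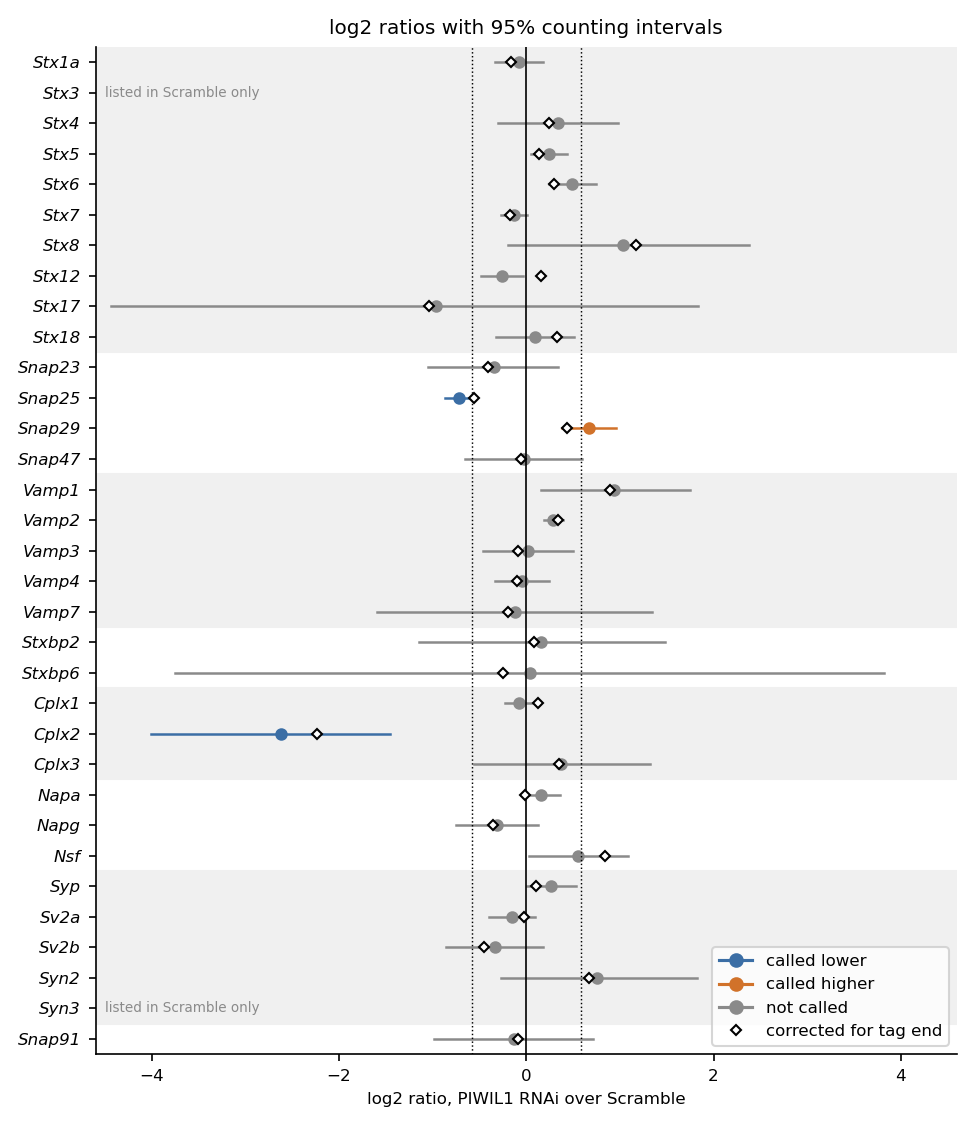
log2 ratio of PIWIL1 RNAi over Scramble for the same 33 genes (circles) with its 95% counting interval (lines), and the same ratio with tag-end medians taken out (diamonds); dotted lines mark 0.58 in either direction. Cplx2 lies far to the left at −2.62, Snap25 sits at −0.72 and Snap29 at 0.67, while their diamonds, at −0.56 for Snap25 and 0.44 for Snap29, fall inside the dotted lines. The diamond of Stx12 lies to the right of 0, at 0.15.

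The VAMPs are the vesicle-side SNAREs, and none of the 5 was called. Their copies summed to 1730 with Scramble and 2008 with PIWIL1 RNAi, most of them from Vamp2. Vamp2, the synaptobrevin of synaptic vesicles, had 1415 copies (418 TPM) and 1687 copies (511 TPM). It was 1.22-fold higher with PIWIL1 RNAi, a log2 ratio of 0.29 with an interval of 0.19 to 0.39 (Fisher's exact test, FDR 3.59e-08), under the size needed for a call. Thus Vamp2 and Snap25, partners in one complex, differed in opposite directions between these libraries, with intervals that do not overlap.
The 2 abundant tags of Vamp2 went opposite ways. The site 1 tag had 841 copies with Scramble and 1177 with PIWIL1 RNAi, a log2 ratio of 0.52 with an interval of 0.39 to 0.65. The site 2 tag had 528 and 444 copies, a log2 ratio of −0.21 with an interval of −0.40 to −0.03. Their ends, CG and TT, had medians of −0.08 and −0.22 over all tags, and after the tag-end correction the gene's log2 ratio was 0.34.
Vamp1, a second synaptobrevin, had 22 and 41 copies, a log2 ratio of 0.93 with an interval of 0.15 to 1.75 (Fisher's exact test, FDR 0.0637). It lay above 97.5% of the 1318 genes with 50 to 100 copies but did not pass the test. Vamp3, the cellubrevin of most cells, had 75 and 74 copies. A tag of Vamp3 differs at 3 bases from one of Vamp2, and both had nearly equal copies in the libraries, 26 and 29 for the tag of Vamp2 and 9 and 10 for that of Vamp3. The differing bases are in capitals.
Vamp2, site 3: catgagGgtGaatgtggaCaa
Vamp3, site 6: catgagAgtCaatgtggaTaa
Vamp4, of the trans-Golgi network, had 208 and 197 copies, with an interval of −0.33 to 0.25. Vamp7, a longin-domain SNARE of late endosomes that has been tied to neurite outgrowth, had 10 and 9 copies.

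**Figure D3:**
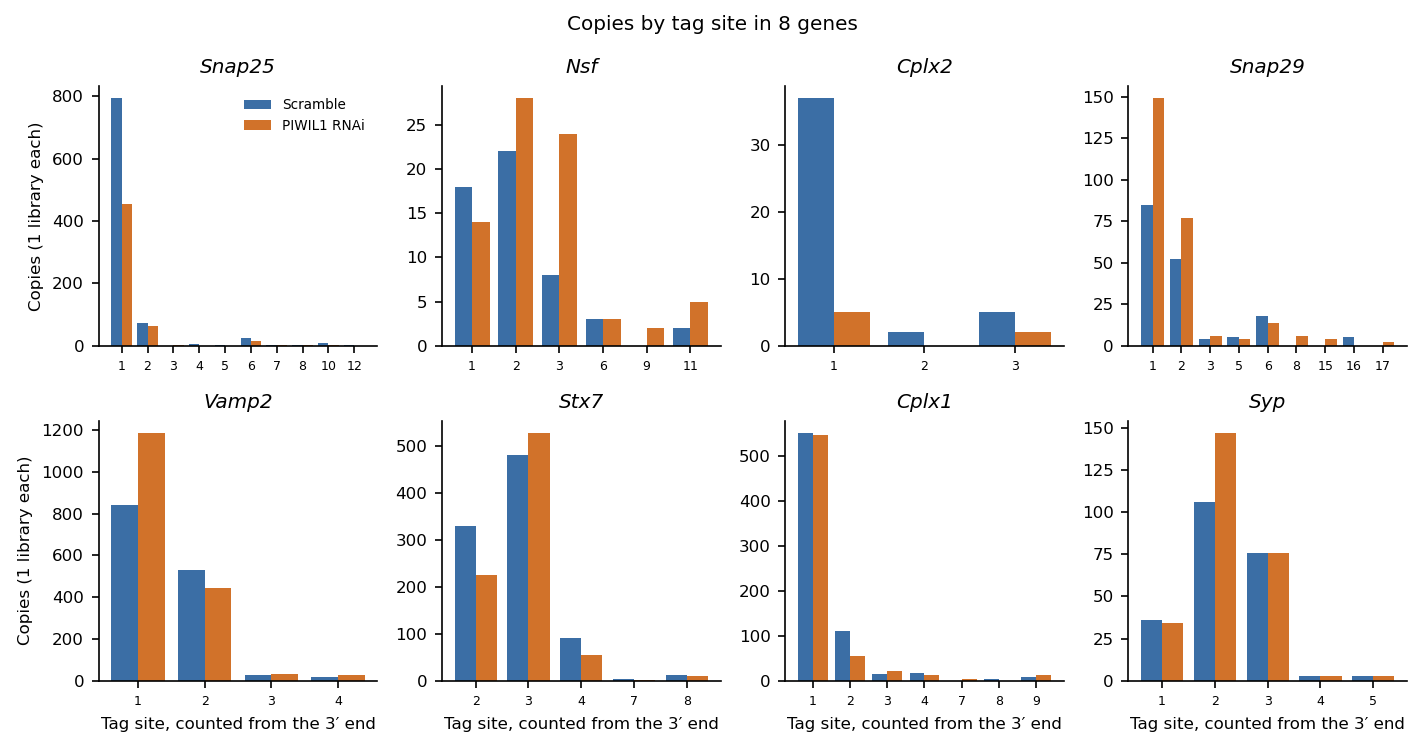
Copies by tag site, counted from the 3′ end, for 8 genes in the Scramble (blue) and PIWIL1 RNAi (orange) libraries, with 1 library each and a separate vertical axis from 0 in each panel. In Snap25 and Cplx2 the most copied tag differs most in copies, in Nsf the site 3 tag differs most, in Vamp2 the bars of sites 1 and 2 go opposite ways, and in Stx7 those of sites 2 and 3 do.

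A like pattern was seen in Stx7, where the gene's small difference was the sum of larger ones. The site 3 tag had 479 copies with Scramble and 524 with PIWIL1 RNAi, a log2 ratio of 0.17 with an interval of −0.02 to 0.35. The tags at site 2 (331 and 222 copies) and site 4 (90 and 54 copies) were lower, with log2 ratios of −0.54 and −0.70. The median over all tags with the ends TA, TC and CC of these 3 tags was between 0.02 and 0.04, so the tag-end medians left the gene at −0.18. No tag of Stx7 at site 1 was listed. In Cplx1 the site 1 tag had 550 and 541 copies, while the site 2 tag, which ends in TG, had 110 and 55.

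None of the syntaxin-binding proteins was called. Stxbp2, used for secretion in other cell types, had 11 and 12 copies, and Stxbp6, or amisyn, which binds syntaxin through a VAMP-like motif, had 2 and 2.

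The complexins are small proteins that clamp and then promote fusion of the assembled SNARE complex, and the largest difference among the genes with at least 20 copies was found here. Cplx2 had 44 copies (12.99 TPM) with Scramble and 7 copies (2.12 TPM) with PIWIL1 RNAi. The log2 ratio was −2.62 with an interval of −4.01 to −1.45 (Fisher's exact test, FDR 3.49e-06), and 0 of the 1318 genes with 50 to 100 copies had a lower one. It was −2.23 after the tag-end medians were taken out (Fisher's exact test, FDR 0.00044), so that Cplx2 stayed called. Its paralog Cplx1 had 701 (207 TPM) and 650 (197 TPM). Its log2 ratio of −0.07 had an interval of −0.23 to 0.08 and turned positive under TMM scaling (0.022), DESeq2 scaling (0.012) and the tag-end correction (0.12).
The site 1 tag of Cplx2 carried 37 of its 44 Scramble copies and 5 of its 7 PIWIL1 RNAi copies. The tag at site 3 had 5 and 2 copies, and that at site 2 had 2 and 0. The abundant tag shares its first 16 bases with a tag of Cplx1 and differs from it in the last 5, shown in capitals.
Cplx2, site 1: catgttcaagaagtaaCCTGT
Cplx1, site 9: catgttcaagaagtaaTGATA
The Cplx1 tag had 8 copies with Scramble and 13 with PIWIL1 RNAi, too few to show a difference, with an interval of −0.64 to 2.21 around its log2 ratio of 0.74. The difference in Cplx2 rests on few copies, and the call was lost when its site 1 tag was left out.

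Cplx3, the complexin best known from the retina, had 19 and 24 copies, a log2 ratio of 0.37 with an interval of −0.56 to 1.32. Its copies were spread over 7 tags, 6 of which were assigned to site 2 and differ from each other at 1 or 2 bases. The most copied pair differs by A20G, counted from 1 at the first base of the tag.
Cplx3, site 2, first form: catgtgggtgctgggaattAa
Cplx3, site 2, second form: catgtgggtgctgggaattGa
The first form had 2 copies with Scramble and 13 with PIWIL1 RNAi, and the second had 10 and 3. The more copied form was thus a different one in each library. A tag that is 1 base away from another cannot be assigned to one transcript with certainty, so the value of Cplx3 is uncertain.

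**Figure D4:**
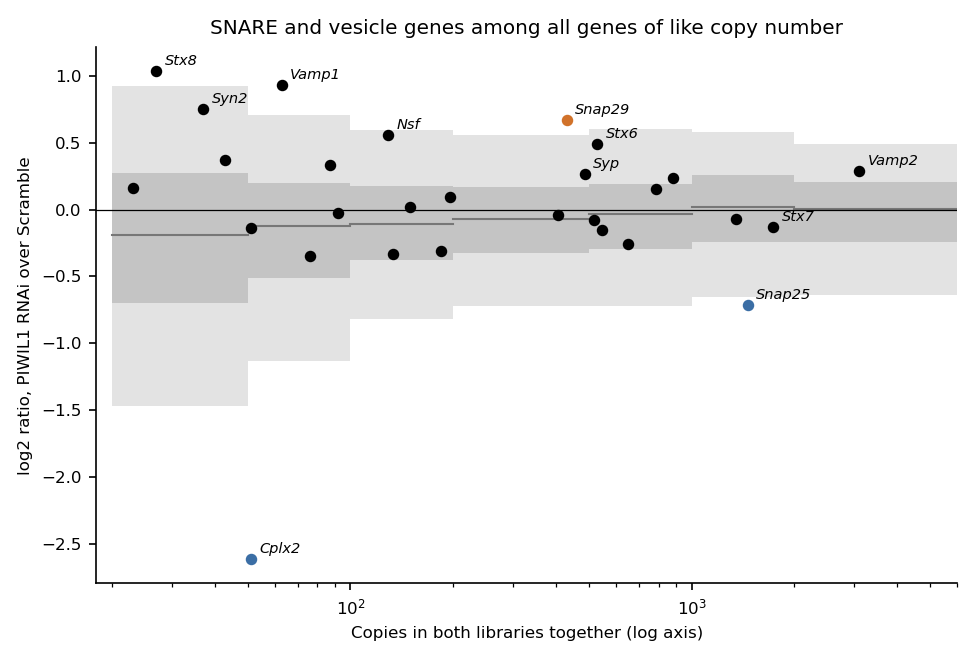
log2 ratio of PIWIL1 RNAi over Scramble against the copies in both libraries together (log axis) for 28 genes with at least 20 copies, over bands that hold the central 50% (dark) and 90% (light) of all genes of like copy number, with the median as a grey line. Cplx2 and Snap25 lie below the light band and Snap29, Stx8 and Vamp1 above it, while the other 23 lie within it.

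The proteins that take SNARE complexes apart were not called. Nsf, the ATPase, had 53 copies with Scramble and 76 with PIWIL1 RNAi. Its log2 ratio of 0.56 had an interval of 0.03 to 1.09 (Fisher's exact test, FDR 0.123), and with the tag-end medians taken out it was 0.84 (Fisher's exact test, FDR 0.0118) and was called higher. The difference came mostly from the tag at site 3, which had 8 and 24 copies, against 22 and 28 at site 2 and 18 and 14 at site 1. Napa, the adaptor alpha-SNAP that brings Nsf to the complex, had 377 and 409 copies with an interval of −0.05 to 0.36, and its log2 ratio of 0.15 turned to −0.018 with the tag-end medians taken out. Napg, or gamma-SNAP, had 103 and 81 copies and an interval of −0.75 to 0.12.

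The proteins of the synaptic vesicle membrane were likewise not called. Syp, synaptophysin, the most widely used vesicle marker, had 224 copies (66.1 TPM) with Scramble and 263 copies (79.6 TPM) with PIWIL1 RNAi. Its log2 ratio was 0.27 with an interval of 0.0050 to 0.53 (Fisher's exact test, FDR 0.120), and the difference lay in the site 2 tag, with 106 and 147 copies, while the site 3 tag had 76 in each. With the tag-end medians taken out the log2 ratio of Syp was 0.10 (Fisher's exact test, FDR 0.632), and by the site 1 tag alone −0.046. Sv2a, a vesicle transporter-like protein and the binding site of the antiepileptic levetiracetam, had 290 and 255 copies with an interval of −0.40 to 0.10. Its paralog Sv2b had 75 and 58 copies and an interval of −0.85 to 0.18. Of the synapsins, which tether vesicles to each other and to actin, Syn2 had 14 and 23 copies with an interval of −0.27 to 1.82, and Syn3 had 2 copies in the Scramble library only. The intervals of Syp and Sv2a lay wholly above that of Snap25, while that of Sv2b overlapped it.
The rule also took in Snap91, which is no SNARE but AP180, an adaptor that gathers clathrin on synaptic membranes. It had 27 and 24 copies over 6 tags, with an interval of −0.99 to 0.71. Syn1, Stx2, Stx16, Stxbp3, Stxbp5, Vamp8, Sv2c and Napb were not analysed here.

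The choice of genes used neither GO terms nor tag sites, but GO terms are not independent of gene names. A GO term naming a vesicle was given for 23 of the 35 genes. The most copied tag was at site 1 in 22 of the 35. The share of all genes with either feature was not computed. Site 1 held 59.2% of the set's copies with Scramble and 60.4% with PIWIL1 RNAi, against 62.7% and 64.6% over all genes. No tag of the set ended in a run of 8 or more A. The set had 218 tags in all, and of the 69 with at least 20 copies 31 had a lower and 38 a higher value with PIWIL1 RNAi. Tags with under 20 copies that lie 1 base from an abundant tag at the same site numbered 20, with 13 copies with Scramble and 39 with PIWIL1 RNAi. Over all genes there were 5284 such tags, with 8148 and 10928 copies.

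The other genes of vesicle fusion and recycling were counted from 4 lists. None of 15 other SNAREs and SM-family proteins, mostly of the Golgi and endosomes, was called, with a median log2 ratio of −0.19 over those with at least 20 copies. Among them only Vps45 (log2 ratio 0.55; Fisher's exact test, FDR 0.0128) passed the FDR threshold, below the size needed for a call. None of 29 genes for priming, calcium sensing and SNARE regulation, such as the Rab3 family, was called either, with a median of 0.02. Only 18 of them had at least 20 copies. The Munc13 genes listed, Unc13a (3 and 3 copies) and Unc13d (0 and 2), had too few to show a difference. By Fisher's exact test, Sncb (log2 ratio 0.52, FDR 1.32e-14), Cadps (0.49, FDR 0.024) and Rab3a (0.19, FDR 0.00192) passed the FDR threshold, below the size needed for a call. No gene of this list passed it with a lower value. Of 23 other vesicle membrane proteins and transporters, 1 rose, or 4.35%, where 8.93% of all genes were called in either direction. It was Slc17a7, the vesicular glutamate transporter VGLUT1, with 108 copies with Scramble and 163 with PIWIL1 RNAi, a log2 ratio of 0.63 (Fisher's exact test, FDR 0.0028). Atp6v0a1, Atp6v0c, Atp6v0d1 and Atp6v1b2 passed the FDR threshold with higher values, below the size needed for a call, and no gene of this list with a lower value.
Of 23 identifiers of endocytosis and recycling genes, 1 fell and 2 rose, 3 of 23 beside the same 8.93% of all genes. Below the size needed for a call, Dnm1 and Sh3gl1 passed the FDR threshold with higher values, and Cltb and Ap2s1 with lower ones. The clathrin heavy chain Cltc fell from 1079 to 698 copies, a log2 ratio of −0.59 (Fisher's exact test, FDR 1.77e-14). Dnm2, the dynamin found in most tissues, rose from 117 to 192 copies, a log2 ratio of 0.75 (Fisher's exact test, FDR 6.25e-05). Pacsin2, or syndapin, which bends membranes and binds dynamin, rose from 14 to 70 copies, a log2 ratio of 2.36 (Fisher's exact test, FDR 2.88e-09). All 4 of these calls were kept with the tag-end medians taken out, at 0.99 for Slc17a7, −0.60 for Cltc, 0.76 for Dnm2 and 2.17 for Pacsin2. The call of Cltc was lost under every other scaling, at −0.50 (TMM), −0.51 (DESeq2) and −0.57 (total copies on genes). With a biological coefficient of variation of 0.1 assumed, Pacsin2 alone of the 4 was called. The call of Pacsin2 was lost with its most copied tag left out (log2 ratio 1.28; Fisher's exact test, FDR 0.165). Slc17a7 and Cltc lost theirs with the most copied tag only, at 0.53 and −0.44. Dnm2 kept its call under both of these tag settings.

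Most neuronal markers were lower with PIWIL1 RNAi, 8 of 10, and Gap43 and Dcx were higher. Over all genes with at least 20 copies, 58.0% were lower. The 8 included Elavl4 with 85 and 74 copies (Fisher's exact test, FDR 0.787) and Nefl with only 6 and 2 (Fisher's exact test, FDR 0.542). By the rule used for the set, 3 of the 10 (30.0%) were called lower and none higher. Over all genes 5.97% were called lower, and 8.46% of those with at least 100 copies. The 3 were Mapt with 4138 and 2514 copies, Elavl3 with 125 and 75, and Map2 with 24 and 8. Map2 rests on few copies and lay near the FDR threshold (Fisher's exact test, FDR 0.0461). The tag-end correction and the other alternatives were not examined for these markers. Tubb3 had 1538 and 1068 copies, a log2 ratio of −0.49, and Gap43 had 2670 and 3541, a log2 ratio of 0.44. Snap25, with a log2 ratio of −0.72, thus lay near Mapt at −0.68, while Vamp2 was higher, at 0.29, as was Gap43. The part of cell composition in these values was not tested.

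**Figure D5:**
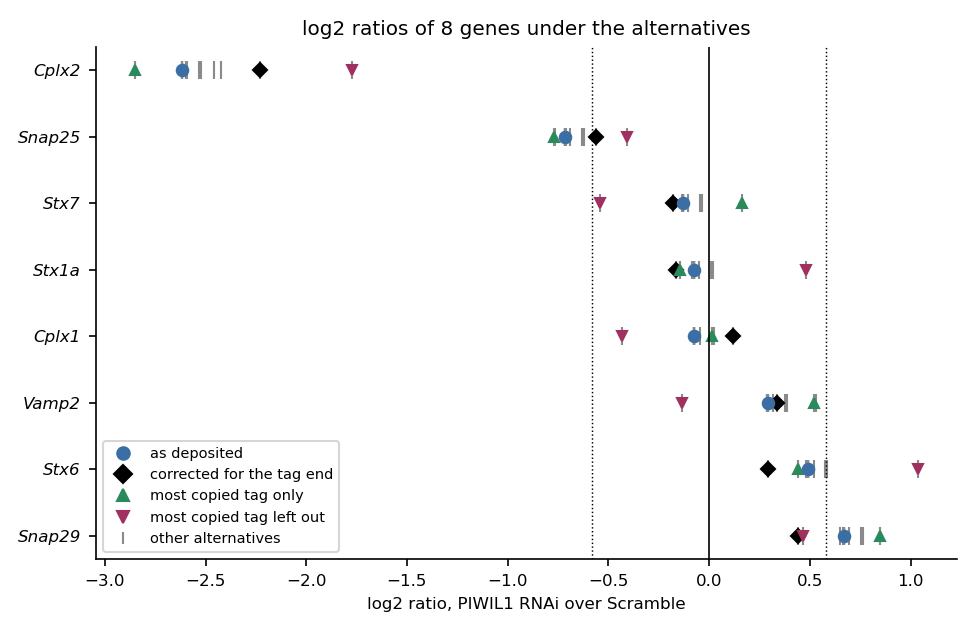
log2 ratio of PIWIL1 RNAi over Scramble for 8 genes as deposited (circles) and under the alternative settings, with separate marks for the tag-end correction, the most copied tag alone and the most copied tag left out; dotted lines mark 0.58 in either direction. Cplx2 stays between −2.85 and −1.77, Snap25 between −0.77 and −0.41 and Snap29 between 0.44 and 0.85, while Stx7, Stx1a, Cplx1 and Vamp2 cross 0 under at least 1 setting.

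The error model decided how many of these differences were called. When biological variation between cultures was assumed in edgeR's exact test, with a coefficient of variation of 0.1, Cplx2 and Snap25 were still called lower, and no gene of the set was called higher. With 0.2 assumed, no gene of the set was called, and over all genes 2 were called lower and 12 higher. With 0.4 assumed, no gene at all was called.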

How the data were processed

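Digital gene expression libraries were sequenced, 1 for Scramble and 1 for PIWIL1 RNAi. The authors deposited for each gene a tag count, the sum of its tags' copies, without normalization, and the same value as CPM of clean tags (named TPM in the files, with no gene length), together with GO terms and every tag's sequence, site and copies. The submitters' processing notes name rn4. The program that matched tags to genes is not given in the sources used here. The tables carry no coordinates, so none are given.

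Symbols came from RefSeq rat genes (GRCr8) by accession, for 9337 identifiers (94.4%). The set and the lists were chosen with earlier results of these data known. All genes were tested together by Fisher's exact test against all other copies on genes, 1947600 and 1865913, with Benjamini-Hochberg adjustment, and log2 ratios were taken from TPM. Full values were given for called genes, for the 12 genes with the most copies and for paralogs of called genes, and tags for called genes with at least 100 copies, the 4 genes with the most copies and tags of one gene that moved in opposite directions. Of the set, 2 genes are included in the counts and sums but are not reported here by name. The Cplx2, Vamp3 and Cplx1 tags, the neuronal markers named and the remaining genes with values were chosen after their values were seen. For the tag-end correction, tags with at least 20 copies were grouped by the same last 2 bases, or the same run of 3 or more A. The median log2 ratio of each group, less that of all these tags, was computed from part of the genes. It was subtracted in the rest, and the other way round, with the shift divided equally between the libraries. The alternatives were other scalings (TMM, 1.02 and 0.976; DESeq2, 1.04 and 0.959), error models, filters on low counts, a pseudocount of 1, other sets of tags and other thresholds. Tags of the most 3′ site alone and the log2 ratio alone, and every setting for the called genes of the lists, were added after seeing the data. Python 3.11.15, NumPy 2.4.6, pandas 2.3.3, SciPy 1.17.1, Matplotlib 3.10.9, R 4.3.3, edgeR 4.0.16 and DESeq2 1.42.0 were used. The tests were tested on simulated counts that held counting error alone, so variation between cultures and tag-end effects were not covered.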

Additional observations from a re-analysis of the deposited data

How the results depend on the processing

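No paired analysis was possible because each condition had 1 library. For the same reason no library could be left out, and differences between cultures could not be measured. Depth left the 5 genes with under 20 copies with no readable difference.
As deposited, 2 genes were called lower and 1 higher, with a median log2 ratio of −0.0050. The number called higher was 3 with TMM factors (Snap29, Stx6, Vamp1), 2 with DESeq2 size factors (Snap29, Vamp1), 2 with the most copied tag only (Snap29, Cplx3) and 4 by the log2 ratio alone at 20 or more copies (Snap29, Stx8, Syn2, Vamp1). It was 0 with a coefficient of biological variation of 0.1, 0.2 or 0.4 assumed, with the most copied tag left out and at a log2 threshold of 1. The number called lower was 1 with the tag-end correction and at a log2 threshold of 1 (Cplx2 in both), and 0 with a coefficient of 0.2 or 0.4 and with the most copied tag left out. The median was 0.21 with the most copied tag only, −0.13 with it left out and 0.13 with the most 3′ site only. Over all genes, 591 lower and 293 higher became 193 and 109 with a coefficient of 0.1, 2 and 12 with 0.2, 0 and 0 with 0.4, 1175 and 534 by the log2 ratio alone, 365 and 187 with the tag-end correction, 250 and 128 without the most copied tag, 262 and 146 at a log2 threshold of 1, and 257 and 163 at an FDR of 0.001.
Of the 17 genes recomputed under every alternative, 11 turned sign under at least 1 of them, without a call. With the tag-end correction Vamp3 (−0.093) and Stxbp6 (−0.24), which were not among the 17, turned sign as well. Cplx1 was at 0.022 (TMM), 0.012 (DESeq2), 0.12 (tag-end correction), 0.012 (most copied tag only) and 0.023 (most 3′ site). Snap47 was at 0.068 (TMM), 0.058 (DESeq2), 0.31 (most copied tag only), 0.0056 (1 copy put back for tags listed in one library) and 0.31 (most 3′ site). Stx1a was at 0.019 (TMM), 0.0096 (DESeq2) and 0.48 (most copied tag left out). With the tag-end correction Napa was at −0.018 and Stx12 at 0.15. With the most copied tag only Stx7 was at 0.17. With the most copied tag left out Cplx3 was at −0.59, Stx5 at −0.38, Sv2a at 0.17 and Vamp2 at −0.13. With the most 3′ site only Syp was at −0.046. The causes were not tested. The values counted were those of the 17 genes and the numbers called in the lists with the tag-end correction. Of these, 241 stayed the same in sign and call or in number called, 12 lost and 4 gained a call, and 21 turned sign. Calls gained by genes outside the 17 are not counted, such as Nsf with the tag-end correction and Vamp1 with TMM and DESeq2 scaling.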
